A study of Mus musculus with 30 samples.

Results

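The comparison set the endothelial cells of mouse mammary tumours against 1 population of cancer-associated fibroblasts, called CAF1, sorted from the same tumours. Its members were 10 of the 30 libraries of the series, 5 endothelial and 5 CAF1, chosen by their labels, and it covered the 14118 genes of the deposited count matrix, of which 12535 had enough counts to be tested. The series sorted 6 stromal populations from each of 5 mammary adenocarcinomas, numbered 5, 6, 8, 10 and 11, each from a separate mouse and each of 750 mm3. All mice were of the strain FVB/N-Tg(MMTVPyVT)634Mul/J, in which the MMTV promoter drives the polyoma virus middle T antigen in mammary epithelium, so every library of both groups came from tumour-bearing transgenic animals and none from normal mammary gland. Endothelial cells were gated as CD45- CD31+ and CAF1 cells as CD45- CD31- CD90+ CD34-, after digestion of the tumour with collagenase I and deoxyribonuclease. The labels used here give no age or treatment. Each value below is the RNA level of a sorted population, in which fewer cells of a type and less RNA per cell cannot be told apart.

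Endothelial cells line the vessel wall, and mural cells (pericytes and smooth muscle cells) wrap around it from outside, within a shared basement membrane. The lining releases PDGF-B, which holds pericytes through the receptor PDGFRB, and carries the receptors for VEGF and the angiopoietins, whose ligands come largely from the surrounding stroma. Notch ligands and receptors, endothelin and nitric oxide pass further signals between lining and wall, and fibroblasts lay down the fibrillar collagens around them. The comparison therefore read both sides of several such ligand and receptor pairs in the same tumours.

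Genes of the lining often carry binding motifs of ETS-family factors near their start site, and 4 promoters are shown. Tie1, Robo4 and Adgrl4 were among the widest differences, and Flt1 is read as a receptor below. All 4 hold a match and do not stand for the other genes of these groups, not all of which hold one. The sequences are from RefSeq for build GRCm38.p6, each the 250 bases before a start site listed for the gene, 5′ to 3′ on the gene's strand. For Tie1 and Adgrl4 that site is the outer end of the annotated gene. For Robo4, annotated from chr9:37401902, and Flt1, annotated up to chr5:147726438, it lies inside the gene. The stretch shown for Flt1 is thus wholly within the gene, and that of Robo4 partly, its match included. Capitals mark matches to AGGAAG, a form of the ETS-family motif, searched on both strands. Other forms of that motif were not searched and are not marked. Tie1 lies on the minus strand at chr4:118489850-118490099, and its match is to the opposite strand, so that it reads CTTCCT. Robo4 lies on the plus strand at chr9:37401722-37401971, Adgrl4 on the plus strand at chr3:151437632-151437881, and Flt1 on the minus strand at chr5:147726012-147726261, with 2 matches.
Tie1: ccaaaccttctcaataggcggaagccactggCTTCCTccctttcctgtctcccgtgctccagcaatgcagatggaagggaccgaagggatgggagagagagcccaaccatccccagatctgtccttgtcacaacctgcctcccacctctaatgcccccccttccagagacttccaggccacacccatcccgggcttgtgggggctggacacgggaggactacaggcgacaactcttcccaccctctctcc
Robo4: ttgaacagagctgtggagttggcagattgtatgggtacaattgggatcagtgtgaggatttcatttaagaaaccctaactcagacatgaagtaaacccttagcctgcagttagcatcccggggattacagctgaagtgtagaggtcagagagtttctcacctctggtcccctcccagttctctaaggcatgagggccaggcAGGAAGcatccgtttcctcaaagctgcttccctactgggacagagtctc
Adgrl4: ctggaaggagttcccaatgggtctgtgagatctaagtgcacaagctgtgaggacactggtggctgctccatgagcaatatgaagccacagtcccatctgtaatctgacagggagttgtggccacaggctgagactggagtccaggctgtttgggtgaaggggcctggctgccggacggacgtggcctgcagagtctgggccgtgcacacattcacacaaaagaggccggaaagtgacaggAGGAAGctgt
Flt1: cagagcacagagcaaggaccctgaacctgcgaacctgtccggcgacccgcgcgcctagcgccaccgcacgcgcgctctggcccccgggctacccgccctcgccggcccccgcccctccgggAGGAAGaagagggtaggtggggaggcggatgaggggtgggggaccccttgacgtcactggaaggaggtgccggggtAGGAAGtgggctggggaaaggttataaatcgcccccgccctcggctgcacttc
In a window of 300 bases (250 before and 50 after the start site) the letters AGGAAG were present for 10383 of 27025 genes with a promoter in the table (38.4%). They were present for 10 of the 15 endothelial identity genes that had a promoter there (66.7%) and for 4 of 17 smooth muscle contractile genes (23.5%). The CArG box, the motif read by serum response factor, was found in 488 of the 27025 (1.8%), in 0 of the 15 and in 1 of the 17, Myl9. A gene with several listed windows (32851 windows for the 27025 genes) counted as holding a match if any of them did. The 27025 are all genes with a RefSeq promoter, whether or not they were tested here. A match is a description of the letters in such a window and was not tested as a binding site.

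Pecam1, Thy1 and Ptprc, genes used by the gates, went with the labels in every library, which checks the sort and is no finding. Levels are given as CPM, a gene's counts relative to the library total after scaling by trimmed mean of M-values (TMM) factors, and 5 values in a row stand in the order of tumours 5, 6, 8, 10 and 11. Pecam1, which encodes CD31, was at 1021, 969.5, 322, 741 and 911 CPM in endothelial cells and at 0.494, 0, 0.294, 0.555 and 0 CPM in CAF1. Thy1, which encodes CD90, was at 3.39, 0.359, 8.99, 1.72 and 2.68 CPM in endothelial cells against 51.0, 74.8, 31.5, 80.0 and 39.6 CPM in CAF1. Cd34 was at 559 to 1382 CPM in endothelial cells and at 12.4 to 133 CPM in CAF1. Endothelial cells were not gated on CD34, so this difference does not check the CD34-negative gate of CAF1. Ptprc, which encodes the leukocyte antigen CD45, did not exceed 0.964 CPM in any of the 10 libraries. The other markers of the lining, Tie1 (at least 149 CPM) and Cdh5 (at least 139.8 CPM), were in each CAF1 library at 1.10 CPM or less. Totals were 8012298 to 10850530 counts, so that 3 counts correspond to 0.276 to 0.374 CPM. Each library was closest by Spearman correlation to another of its own group. The endothelial library of tumour 8 stood apart: its summed level of the 3 markers Pecam1, Cdh5 and Tie1 was 612 CPM against 1709.9 to 1974 CPM in the other 4, and its correlation with a CAF1 library reached 0.886.

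**Figure D1:**
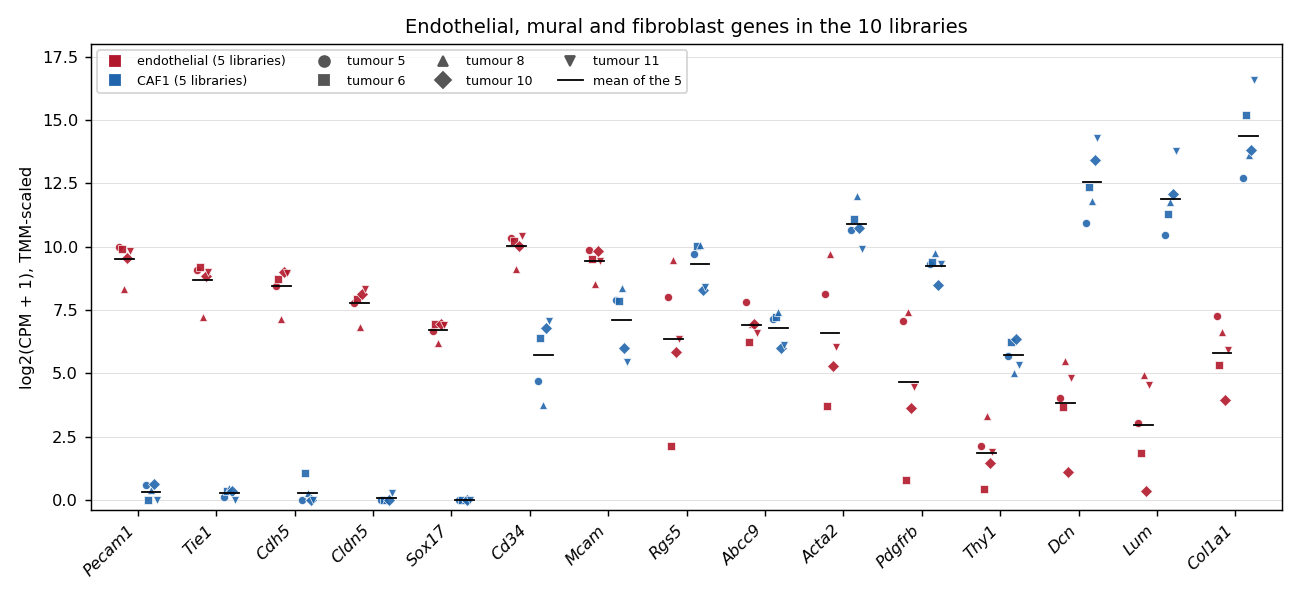
Levels of 15 genes in the 10 libraries, as log2(CPM + 1) with TMM scaling; each point is 1 library, the symbol gives the tumour and the black bar the mean of 5. Pecam1, Tie1, Cdh5, Cldn5 and Sox17 were near 0 in all CAF1 libraries, Dcn, Lum and Col1a1 were low in all endothelial libraries, and Rgs5, Acta2 and Pdgfrb spread widely among the endothelial libraries, highest in tumours 5 and 8.

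The populations differed over a large part of the transcriptome. With edgeR's quasi-likelihood test, the tumour as a block and a Benjamini-Hochberg adjusted p under 0.05, 5249 of 12535 genes were called (41.9%), 2426 higher in endothelial cells (19.4%) and 2823 lower (22.5%). Of the genes tested, 1655 had all endothelial libraries above all CAF1 libraries (13.2%) and 1899 had them all below (15.1%). Counts of called or non-overlapping list members below are to be read beside these shares of all genes tested. The median log2 fold change of all genes was -0.02, where a log2 fold change is always endothelial over CAF1. Scaling by library totals alone moved that median to 0.490 and turned the split from 46.2% of calls higher to 72.9%, so the directions below are relative to the TMM scaling; no gene was called in opposite directions under any setting. CAF1 libraries spent up to 26.8% of their counts on their 10 most abundant genes. Fitted folds of genes with a group close to 0 depend on the prior count of the fit, and where no library of a group exceeded 3 counts only the levels are given.

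**Figure D2:**
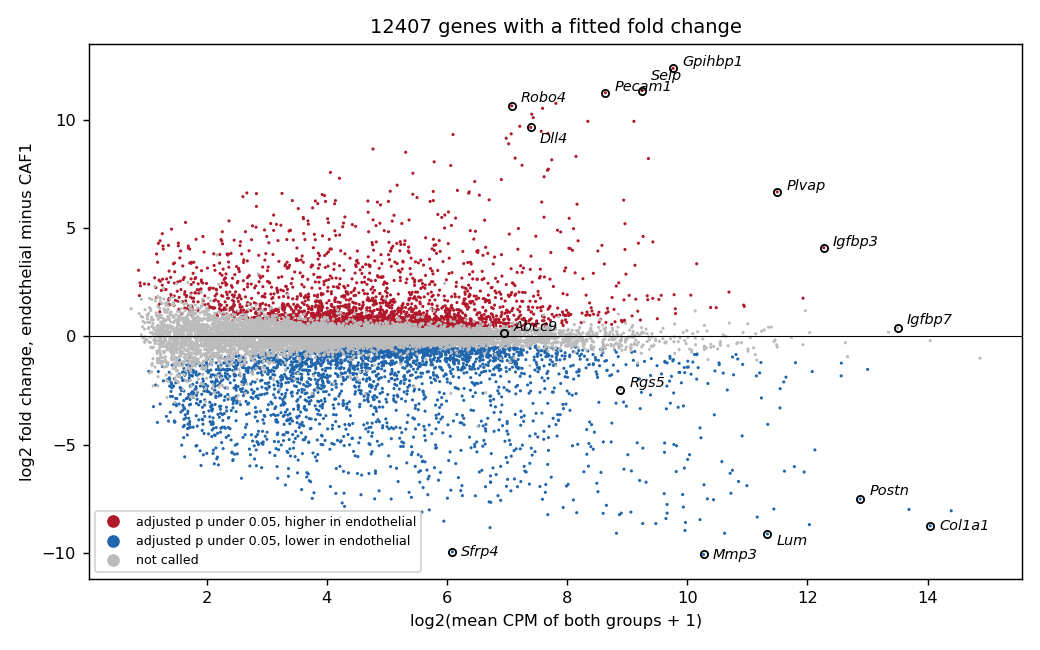
Log2 fold change (endothelial minus CAF1) of 12407 genes against log2 of their mean CPM + 1, red and blue by call as the legend states and grey where not called; 128 tested genes with a group at the floor are left out. The named genes at the top (Gpihbp1, Selp, Pecam1, Robo4) lie between 10.65 and 12.39, Mmp3, Sfrp4, Lum and Col1a1 lie between -8.75 and -10.07, and Abcc9 and Igfbp7 lie close to 0.

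The 12 widest differences toward the lining were taken from called genes with a fitted fold and at least 20 CPM on average there. They included the markers Pecam1, Tie1 and Cdh5 and receptor, enzyme and adhesion genes. Gpihbp1, which anchors lipoprotein lipase on the capillary surface, was at 1439, 1827, 1168, 2474 and 1774 CPM in endothelial cells and at most at 0.964 CPM in CAF1, a log2 fold change of 12.39 (SE 0.97, adjusted p = 0.000165). Selp, the P-selectin that tethers leukocytes, was at 1730.4, 2128, 239.6, 658 and 1300.4 CPM against at most 1.78 CPM (11.36, SE 0.67, adjusted p = 6.37e-05). The groups did not overlap for either gene, and tumour 8 was the lowest endothelial library for both. The guidance receptor gene Robo4, whose promoter is shown above, had a log2 fold change of 10.65 (SE 0.64). The apelin receptor gene Aplnr followed with 10.27 (SE 0.51), and the adhesion receptor gene Adgrl4 with 10.11 (SE 0.67). The potassium channel subunit gene Kcne3 was at 647 ± 254 CPM (SD, n = 5) against 0.635 ± 0.559, and Depp1 at 1102 ± 455 against 1.72 ± 2.47. The endothelial nitric oxide synthase gene Nos3 and the Notch ligand gene Dll4 completed these 12, with log2 fold changes of 9.71 (SE 0.30) and 9.66 (SE 0.51). Genes too low in CAF1 for a fold were not ranked, although their levels could differ as widely. Among these, the junction gene Cldn5 was at 234 ± 77.3 CPM against 1 CAF1 library above 0. The transcription factor gene Sox17 was at 107 ± 21.4 CPM against no count in any CAF1 library.

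All 30 genes of the endothelial identity list were called higher, with no overlap between the groups, at a median log2 fold change of 7.90. Their summed level was 8047 to 24696 CPM in endothelial cells, lowest in tumour 8, and 259 to 489.5 CPM in CAF1. Of 25 endothelial transcription factors, 21 were higher, 1 lower and 3 not called. Sox7 was at 301 ± 122 CPM against 1.18 ± 0.818 (log2 fold change 7.91, SE 0.38), Sox18 at 409 ± 203 against 1.67 ± 0.403 (7.73, SE 0.51), and the blood and vessel factor gene Tal1 at 10.6 ± 4.22 against 0.110 ± 0.246. The flow-responsive factor gene Klf4 was the exception: it was at 60.5, 116, 49.6, 85.6 and 61.4 CPM in endothelial cells and at 106, 185, 62.5, 336 and 210.3 CPM in CAF1, lower within every tumour (-1.11, SE 0.27, adjusted p = 0.0145). Its relative Klf2 was at 373 ± 189.9 CPM against 628 ± 475 (-0.60, SE 0.47, not called), and the venous factor gene Nr2f2 at 31.6 ± 3.42 against 30.3 ± 12.3 (0.14, SE 0.25, not called). Klf4 lost its call without tumour 11 and with scaling by library totals alone.

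Genes of particular vessel segments were mostly on the endothelial side. Of 18 genes of sprouting tip cells 16 were higher and none lower, of 19 arterial genes 13 were higher and 2 lower, and of 12 venous genes 8 were higher and 2 lower, with medians of 3.29, 3.40 and 3.43. Of all genes tested 19.4% were higher and 22.5% lower. Esm1, the endocan gene of tip cells, was at 424, 226, 142, 350.3 and 146 CPM in endothelial cells and at most at 1.38 CPM in CAF1 (log2 fold change 8.90, SE 0.80). E-selectin (Sele) and the atypical chemokine receptor gene Ackr1, both genes of venules, were at 564 ± 373 CPM against 7.24 ± 2.91 and at 131 ± 73.3 CPM against 0.632 ± 0.794. Both selectin genes spread widely among tumours: Sele was at 1083 CPM in tumour 5 and at 136 CPM in tumour 8. Not every list member followed. The tip cell gene Adm, which encodes adrenomedullin, was at 96.4, 52.8, 113, 87.4 and 51.0 CPM in endothelial cells against 100.2, 145, 88.7, 457 and 463 CPM in CAF1 (-1.35, SE 0.55, not called). The arterial list's Cxcl12, a chemokine also made by fibroblasts, was lower, at 73.1 to 163 CPM against 95.2 to 1175 CPM (-1.61, SE 0.52, adjusted p = 0.0407), and the venous list's interleukin 1 receptor gene Il1r1 was lower at 31.8 ± 6.68 CPM against 145 ± 48.0 (-2.16, SE 0.23). Cxcl12 lost its call without tumour 6, 10 or 11, with robust dispersion estimates and with library totals alone.

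Of 9 genes of caveolae, the flask-shaped pits of the endothelial membrane, 8 were called higher, 6 of them with no overlap between the groups. The smallest of these differences, that of Ehd2 (0.63, SE 0.19), was not called without tumour 5, 6, 10 or 11 or with all 30 libraries. Cav1, which encodes their main coat protein, was at 1394, 849, 571, 999.9 and 1235 CPM in endothelial cells and at 86.8, 82.8, 189, 87.2 and 87.5 CPM in CAF1 (log2 fold change 3.29, SE 0.40, adjusted p = 0.000872). Cavin2 had a log2 fold change of 3.84 (SE 0.23) and Plvap, the protein of the diaphragms that span them, one of 6.68 (SE 0.58) at 5722 ± 2638 CPM against 54.4 ± 19.3. Cavin1, a coat gene used by many cell types, differed less, at 232 ± 63.8 CPM against 105 ± 32.8 (1.14, SE 0.25). Cav3, the caveolin of muscle, had no count in any endothelial library and was at 1.86 to 11.2 CPM in CAF1, the list's only lower gene.

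Of 14 genes of capillary lipid uptake tested 10 were higher, 1 lower and 3 not called, at a median log2 fold change of 2.48. The lower gene was Lpl, the lipase that Gpihbp1 anchors: it was at 23.3, 2.99, 34.9, 17.0 and 16.1 CPM in endothelial cells and at 275, 419.8, 294, 1071 and 1297 CPM in CAF1 (log2 fold change -5.21, SE 0.74, adjusted p = 0.00162). The anchor's gene was thus read on the endothelial side and the enzyme's gene on the CAF1 side in all 5 tumours. The water channel gene Aqp1 was at 963 ± 646 CPM against 32.2 ± 35.6 (5.21, SE 0.58), and the capillary genes Cd300lg and Btnl9 were at 282 ± 91.4 and 56.6 ± 26.8 CPM with CAF1 at or under 3 counts. The fatty acid binding protein gene Fabp5 was at 105 to 366 CPM in endothelial cells and 65.0 to 360.2 CPM in CAF1 (0.13, SE 0.55, not called). Of 25 junction and leukocyte adhesion genes, 19 were higher and 2 lower, the latter Cdh2, which encodes N-cadherin, and the connexin gene Gjc1, neither of them called without the tumour block; Cdh2 was also not called without tumour 5, 6, 10 or 11. Vcam1, an adhesion molecule for leukocytes, was at 83.8 ± 54.8 CPM against 180.1 ± 106 (-1.17, SE 0.45, not called), and Jam3 was at 63.3 ± 15.0 against 62.5 ± 12.1.

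VEGF receptors and ligands lay largely on opposite sides, with 6 of 10 genes higher in endothelial cells, 3 lower and 1 not called. Among the ligands, Vegfa was at 34.8, 21.6, 37.7, 11.5 and 9.06 CPM in endothelial cells and at 152, 99.5, 70.0, 58.8 and 55.2 CPM in CAF1 (log2 fold change -2.03, SE 0.25, adjusted p = 0.000991). Vegfd was at 0.399 ± 0.339 CPM against 45.4 ± 51.1 (-6.40, SE 0.78), highest in CAF1 of tumour 10 at 127 CPM, and Vegfb was at 10.2 ± 2.36 against 19.6 ± 4.23 (-0.94, SE 0.18). The placental growth factor gene Pgf was the only ligand called higher, at 62.3 to 102 CPM against 18.7 to 60.0 CPM (1.04, SE 0.23, adjusted p = 0.0107), and Vegfc was not called (0.53, SE 0.35). Every receptor and co-receptor gene of the list was higher in the lining. Kdr, the main signalling receptor, was at 514, 368, 212, 466 and 477 CPM and at most at 1.38 CPM in CAF1 (9.38, SE 0.60, adjusted p = 8.11e-05). Flt1 was at 929 ± 421 CPM against 66.1 ± 44.5 (4.02, SE 0.60), and Flt4 at 34.7 to 119.6 CPM with CAF1 at or under 3 counts. The neuropilin co-receptor genes Nrp1 and Nrp2 had smaller differences, of 1.55 (SE 0.20) and 2.24 (SE 0.21). Vegfb lost its call with library totals alone.

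The PDGF genes held the ligand and receptor pair described above for lining and pericytes. CAF1 held fibroblast as well as mural genes, so its Pdgfrb level cannot be assigned to pericytes alone. Pdgfb, the ligand, was at 37.9, 60.0, 31.3, 83.4 and 33.7 CPM in endothelial cells and at 7.90, 3.44, 1.67, 0.693 and 0.890 CPM in CAF1 (log2 fold change 4.24, SE 0.58, adjusted p = 0.00144). Its receptor gene Pdgfrb was at 134, 0.718, 168, 11.4 and 21.1 CPM in endothelial cells and at 636, 677, 859, 357 and 628 CPM in CAF1 (-4.42, SE 1.07, adjusted p = 0.0144). Pdgfrb was lower in all 5 tumours, but its endothelial level ran from 0.718 CPM in tumour 6 to 168 CPM in tumour 8, and its call was lost without tumour 11. Pdgfra, the receptor of fibroblasts, stayed at or under 2.42 CPM in endothelial cells and was at 97.7 to 419 CPM in CAF1 (-7.64, SE 0.68). The ligand genes Pdgfa, Pdgfc and Pdgfd were not called. In the angiopoietin family, all 6 genes were called, 3 in each direction. Tek, the receptor that signals, was at 159 ± 57.4 CPM against 6.39 ± 4.87 (4.89, SE 0.43), and Tie1, its partner, was given above. Angpt1, the activating ligand, was at 3.07 ± 3.67 CPM against 36.5 ± 11.8 (-4.10, SE 0.68), whereas Angpt2, the ligand that endothelial cells store, was at 619, 222, 265, 281 and 107 CPM against 78.7, 57.3, 88.4, 29.0 and 71.4 CPM (2.08, SE 0.40). Angpt4 and Svep1 were lower, Svep1 at 1.69 ± 2.15 CPM against 234 ± 120.2.

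**Figure D3:**
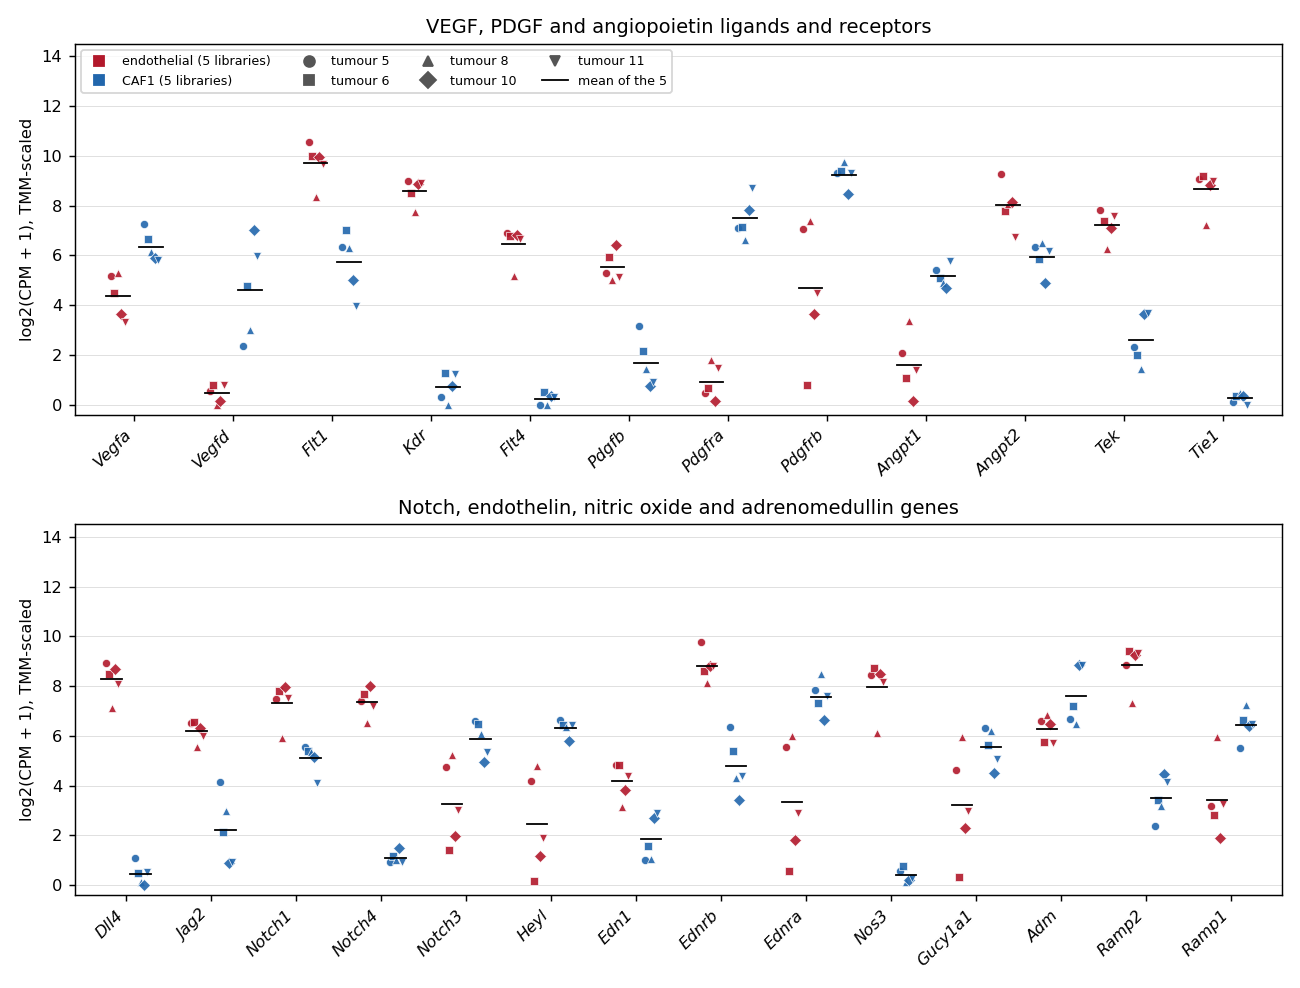
Levels, as log2(CPM + 1) with TMM scaling, of ligand and receptor genes in the 5 endothelial and 5 CAF1 libraries; symbols give the tumour and black bars the mean of 5. Flt1, Kdr, Flt4, Pdgfb, Tek, Dll4, Notch4, Ednrb, Nos3 and Ramp2 sit above CAF1, Vegfa, Vegfd, Pdgfra, Pdgfrb, Angpt1, Heyl and Ednra below it, each with groups that do not overlap.

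Notch genes were called in both directions. Of 16 genes 10 were higher, 4 lower and 2 not called. Among the ligands, Dll4 was at 487, 356, 139, 416 and 272 CPM in endothelial cells and at most at 1.15 CPM in CAF1, Jag2 was at 74.4 ± 20.2 CPM against 5.73 ± 6.60 (log2 fold change 4.13, SE 0.64), and Dll1 at 39.6 ± 15.1 against 3.47 ± 2.16 (3.48, SE 0.44). Jag1 was at 23.5 ± 4.79 against 30.3 ± 3.99 and missed the threshold (-0.38, SE 0.14, adjusted p = 0.0575). Among the receptors, Notch4, the endothelial member, was at 173 ± 61.4 CPM against 1.16 ± 0.384 (7.16, SE 0.21, adjusted p = 6.16e-06), and Notch1 at 178 ± 72.5 against 35.4 ± 11.5 (2.27, SE 0.40). Notch3, the receptor of mural cells, was at 26.2, 1.68, 36.2, 2.87 and 7.0 CPM in endothelial cells and at 94.8, 88.3, 65.8, 30.1 and 39.8 CPM in CAF1 (-2.66, SE 0.63, adjusted p = 0.0126). Notch2 was lower too (-2.16, SE 0.43). The target genes divided as well: Hey1 was at 81.9 ± 28.6 CPM against 8.14 ± 4.76 (3.40, SE 0.45), Nrarp had a log2 fold change of 2.87 (SE 0.38) and Hes1 one of 1.09 (SE 0.24), while the mural target Heyl was at 9.59 ± 11.8 against 80.8 ± 16.0 (-4.07, SE 0.89). Of the fringe genes, whose enzymes modify Notch, Mfng was at 64.4 to 173 CPM with CAF1 at or under 3 counts, Lfng was higher (1.74, SE 0.49) and Rfng lower (-0.53, SE 0.15). Lfng and Rfng lost their calls without tumour 5, 10 or 11, Lfng also without tumour 6, and Rfng also with library totals alone and without tumours 5 and 8 together.

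TGF-beta and BMP genes were called in both directions, 9 higher and 15 lower of 27. Among the ligands, Bmp4 (16.5 ± 5.64 against 1.88 ± 1.11 CPM), Bmp6 (12.8 ± 7.20 against 3.62 ± 1.51 CPM) and the activin subunit gene Inhbb (210.0 ± 70.3 against 29.2 ± 5.33 CPM) were higher in endothelial cells. Tgfb3 was at 5.65 to 69.2 CPM in endothelial cells and at 163 to 407 CPM in CAF1 (log2 fold change -3.66, SE 0.60, adjusted p = 0.00292), and the activin subunit gene Inhba was lower as well (-2.45, SE 0.45). Tgfb1 was at 12.6 to 124 CPM against 18.1 to 62.1 CPM (0.58, SE 0.32, not called). The endothelial BMP receptor gene Acvrl1 and its co-receptor gene Eng were higher, by 1.03 (SE 0.19) and 3.11 (SE 0.31), and Bmpr2 by 0.91 (SE 0.18). Tgfbr1, Tgfbr2, Tgfbr3 and Bmpr1a were lower, Bmpr1a at 8.56 ± 6.74 CPM against 52.7 ± 6.77. The targets did not move as 1 group: Id1 was at 269.9 ± 129 CPM against 32.4 ± 10.7 (2.96, SE 0.34), whereas Id2 (-0.97, SE 0.17) and Id3 (-0.92, SE 0.24) were lower. The latent TGF-beta binding protein genes Ltbp1, Ltbp2 and Ltbp3 were lower, and Ltbp4 was at 249 ± 93.8 CPM against 223 ± 92.4 (0.16, SE 0.16, not called). The calls of Tgfb2, Bmp2, Gdf10, Smad6, Id3 and Ltbp1, all named by the list, were lost when single tumours were left out (those of Smad6 and Ltbp1 also without the block), and those of Tgfbr1, Id2, Id3 and Tgfb2 with library totals alone.

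Vasoactive genes were called on both sides, 11 of 29 higher and 16 lower. Edn1, the endothelin ligand, was at 27.1, 27.7, 7.72, 13.2 and 19.9 CPM in endothelial cells and at 0.987, 1.93, 1.08, 5.41 and 6.45 CPM in CAF1 (log2 fold change 2.79, SE 0.54, adjusted p = 0.00592), and Ece1, which activates it, was higher (1.62, SE 0.32). Its receptor on the lining, Ednrb, was at 486 ± 231 CPM against 34.1 ± 28.7 (4.08, SE 0.37). The receptor of the contractile wall, Ednra, was at 45.6, 0.479, 62.8, 2.49 and 6.38 CPM in endothelial cells and at 228, 159, 355, 98.0 and 195 CPM in CAF1 (-4.32, SE 0.84). Nos3 lay on the endothelial side, and the nitric oxide receptor genes Gucy1a1 (-2.26, SE 0.74) and Gucy1b1 (-2.64, SE 0.76), the cGMP kinase gene Prkg1 (-2.83, SE 0.59) and the phosphodiesterase gene Pde5a (-2.61, SE 0.51) on the CAF1 side. Adrenomedullin and CGRP share the receptor gene Calcrl (2.70, SE 0.60), and its partner genes went opposite ways: Ramp2 was at 509.9 ± 215 CPM against 11.9 ± 6.81 and Ramp3 at 111 ± 49.5 against 2.15 ± 0.990, while Ramp1 was at 17.3 ± 24.6 against 92.9 ± 38.4 (-3.17, SE 0.52). The sphingosine phosphate receptors divided likewise: S1pr1 was at 381 ± 131 CPM against 8.97 ± 4.99 (5.51, SE 0.60), and S1pr2 (-2.93, SE 0.24) and S1pr3 (-3.78, SE 1.03) were lower. Prostaglandin receptor genes Ptgir (-2.87, SE 0.81) and Ptger3 (-7.51, SE 0.64), the angiotensin receptor gene Agtr1a (-2.90, SE 0.74) and the converting enzyme gene Ace (-1.89, SE 0.38) were lower. Several of these calls rested on all 5 tumours: without tumour 10 or 11 the count of lower genes was 10 against 16, and Gucy1a1, Gucy1a2, Gucy1b1, Ptgir, Agtr1a and S1pr3 were among those lost, as was the higher call of Npr1. The 3 Gucy1 genes were also not called without the tumour block.

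WNT, guidance and growth factor genes differed in either direction. The shares over all genes tested were 19.4% higher and 22.5% lower. Of 24 WNT genes 5 were higher and 15 lower. The secreted antagonist gene Sfrp4 was at most at 0.412 CPM in endothelial cells and at 7.90, 107, 3.04, 338 and 216 CPM in CAF1 (log2 fold change -9.95, SE 0.39), Sfrp2 was at 4.80 ± 4.30 CPM against 1615 ± 1612, and the ligand gene Wnt2 at 10.5 to 32.9 CPM in CAF1 with the lining at or under 3 counts. The receptor genes Fzd4 (1.99, SE 0.17) and Fzd6 (2.48, SE 0.19), the Fzd4 partner gene Tspan12 (2.66, SE 0.28) and the nuclear effector gene Lef1 (4.46, SE 0.41) were higher in the lining, and Fzd1 was lower at 2.44 ± 1.31 CPM against 187 ± 117. Of 31 guidance genes 12 were higher and 13 lower. The Slit ligand genes were lower, Slit2 at 0.330 ± 0.416 CPM against 93.5 ± 26.9 and Slit3 at 3.90 ± 1.99 against 313 ± 152, while Robo4, of the Robo receptor family, was on the endothelial side and Robo1 was not called (0.50, SE 0.19, adjusted p = 0.0676). Sema3f was at 554, 443, 141, 473 and 263 CPM against at most 7.32 CPM (6.21, SE 0.46), and Sema3b was lower (-4.99, SE 1.10). The ephrin gene Efna1 was at 440.1 ± 130.5 CPM against 16.1 ± 9.89 and the ephrin receptor gene Epha3 at 0.115 ± 0.203 against 55.6 ± 21.2. Of 16 FGF, HGF and IGF genes 2 were higher, Igfbp3 and Met, and 9 lower. Igfbp3, which binds IGF, was at 18271, 9884, 2709, 9529 and 6529 CPM in endothelial cells and at 713, 530.0, 193, 431 and 663 CPM in CAF1 (4.10, SE 0.39, adjusted p = 0.000344). Other binding proteins did not follow: Igfbp2 (-6.85, SE 1.20) and Igfbp6 (-6.91, SE 0.70) were lower, and Igfbp7 was at 13582 ± 5987 CPM against 9618 ± 3013 (0.39, SE 0.43, not called). Igf1 itself was lower, at 23.6 ± 12.8 CPM against 332 ± 243.

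Mural genes were mostly on the CAF1 side, but unevenly across tumours. Of 22 pericyte genes 17 were lower, 1 higher and 4 not called, and of 19 smooth muscle contractile genes 13 were lower, 1 higher and 5 not called. The summed level of the pericyte list was 862 to 2646 CPM in endothelial cells and 1794 to 4943 CPM in CAF1, and that of the smooth muscle list 835 to 3103 CPM against 3988 to 8871 CPM. Acta2, smooth muscle actin, was at 276, 12.2, 846, 37.8 and 64.5 CPM in endothelial cells and at 1634, 2196, 4109, 1713 and 961 CPM in CAF1 (log2 fold change -4.22, SE 0.87, adjusted p = 0.00726). Tagln (-4.15, SE 0.56), Tpm2 (-3.87, SE 0.61) and the pericyte factor gene Tbx18 (-4.60, SE 0.58) were lower with no overlap between groups. Rgs5, the best known pericyte gene, was at 258, 3.35, 713, 56.8 and 81.5 CPM in endothelial cells and at 842, 1041, 1074, 310.0 and 341 CPM in CAF1, lower in every tumour yet not called (-2.45, SE 0.98, adjusted p = 0.0812). Mural genes were highest in the endothelial libraries of tumours 8 and 5 and lowest in that of tumour 6: there Rgs5 was at 3.35, Pdgfrb at 0.718 and Ednra at 0.479 CPM. Rgs5 was called lower with DESeq2, with voom and quality weights, with all 30 libraries in the fit, without tumour 6 and without tumours 5 and 8, the last chosen after these values were seen and leaving out the 2 highest endothelial libraries; it was not called in the other settings.

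Not every gene listed as mural followed. Abcc9, a channel subunit gene used as a pericyte marker, was at 225, 74.7, 123, 123 and 95.7 CPM in endothelial cells and at 139, 149.8, 168, 63.6 and 68.3 CPM in CAF1 (0.14, SE 0.30, adjusted p = 0.733). Mcam, an adhesion molecule of both the lining and pericytes, was at 921, 731, 363, 901 and 684 CPM against 234, 228, 331, 62.8 and 42.7 CPM, the list's only higher gene (2.33, SE 0.62, adjusted p = 0.0197). The calls in these lists rested on the pairing and on single tumours: without the tumour block 10 pericyte and 6 smooth muscle genes were lower, without tumour 11 the pericyte count was 9, and without tumour 5 the smooth muscle count was 8. Mcam was not called without tumour 5, 10 or 11. Fibroblast transcripts in the endothelial libraries followed no single order of tumours. Postn was at 287, 11.9, 326, 14.1 and 98.3 CPM and Col1a1 at 154, 39.0, 97.6, 14.3 and 60.0 CPM, both highest in tumours 5 and 8, whereas Dcn was at 15.2, 11.7, 44.1, 1.15 and 27.2 CPM and Lrrc15 at 1.47, 2.16, 2.82, 0.957 and 13.2 CPM. The part of such transcripts in each endothelial value was not tested.

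**Figure D4:**
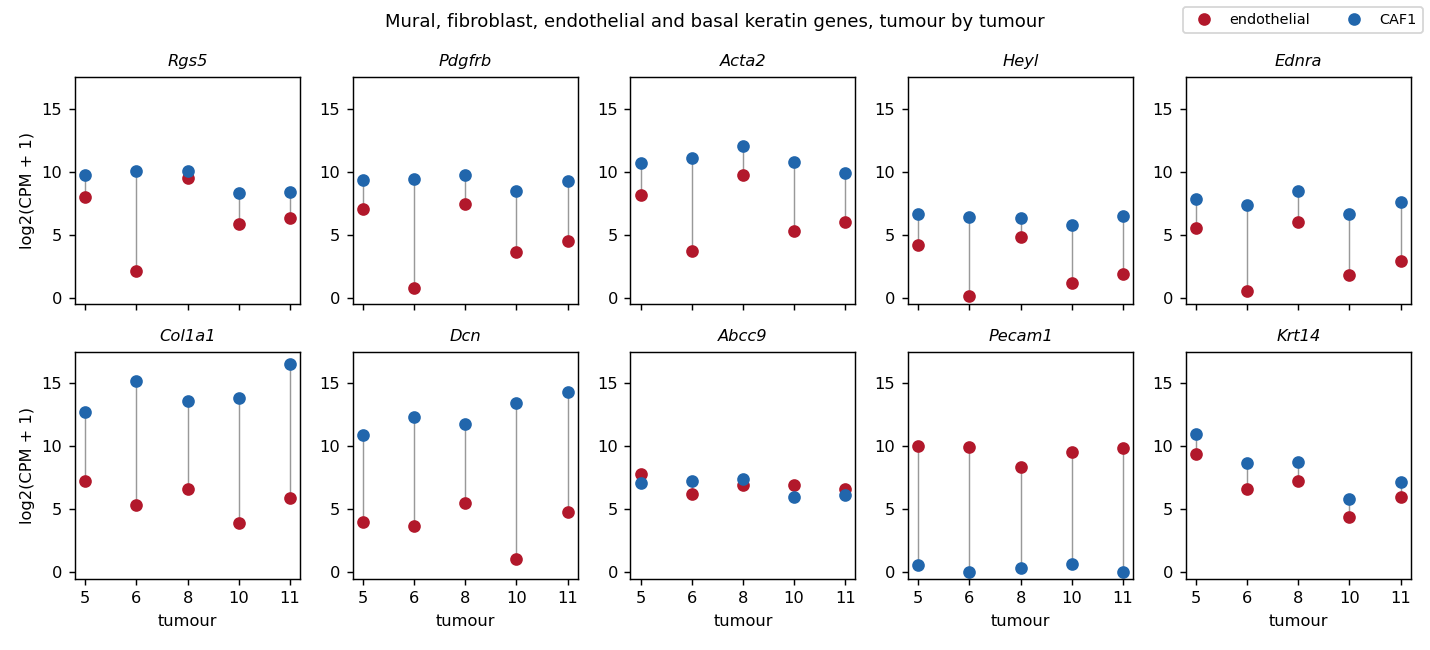
Levels of mural, fibroblast, endothelial and keratin genes by tumour, as log2(CPM + 1), with a grey line joining the endothelial and CAF1 libraries of the same tumour. Rgs5, Pdgfrb, Acta2, Heyl and Ednra dip in the endothelial library of tumour 6 and are high in those of tumours 5 and 8, Col1a1 and Dcn are far apart in each tumour, Abcc9 is close together, and Krt14 moves in parallel in both populations.

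Fibroblast genes and the fibrillar matrix lay almost wholly on the CAF1 side. All 18 general fibroblast genes were lower in endothelial cells with no overlap, at a median log2 fold change of -7.26, and their summed level was 405 to 2503 CPM against 42259.9 to 350333 CPM. Col1a1, a chain of type I collagen, was at 6748, 37208, 12703, 14505 and 97334 CPM in CAF1 (-8.75, SE 1.21, adjusted p = 0.00149). Of 10 fibrillar collagen genes 9 were lower and Col11a2 was not called. Col3a1 had a log2 fold change of -8.05 (SE 1.37), Col1a2 one of -7.99 (SE 1.11), and Col27a1 the smallest of the called, -2.07 (SE 0.26). The CAF1 levels themselves ran over a wide range, highest in tumour 11 and lowest in tumour 5 for Col1a1. The leucine-rich proteoglycans that coat collagen fibrils, 11 of 11 lower, included Dcn at 19.9 ± 16.4 CPM against 8353 ± 7393 and Lum at 12.4 ± 13.0 against 5146 ± 5100.0 (-9.12, SE 1.13). Of 16 myofibroblast genes 15 were lower, among them Lrrc15 (-8.64, SE 0.51), Postn (-7.51, SE 1.39) and Spon1 (-7.50, SE 0.80). Of 25 fibroblast and mural transcription factors 19 were lower, among them Prrx2 (-7.36, SE 0.60) and Twist1 (-4.70, SE 0.77), and 2 were higher, Meox1 at 109.6 ± 36.5 CPM against 29.3 ± 5.16 and Zeb1 at 138 ± 29.9 against 59.9 ± 5.57. Comp of the myofibroblast list was not called (-2.65, SE 0.98, adjusted p = 0.0649) and was high in tumour 8 alone in both groups, at 105 CPM in endothelial cells and 104 CPM in CAF1.

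Genes that cross-link, bind and cleave the matrix lay on the same side. Of 16 collagen crosslinking genes 15 were lower, such as Lox, the lysyl oxidase gene, at 1.19, 3.59, 2.01, 0.766 and 7.10 CPM against 498, 646, 330.1, 1024 and 1353 CPM (log2 fold change -8.17, SE 0.55). Plod1, a lysyl hydroxylase gene, was at 382 ± 95.6 CPM against 238 ± 50.1 and was not called (0.67, SE 0.26, adjusted p = 0.0757). Of 18 elastic fibre genes 16 were lower, with Mfap4 at -8.96 (SE 1.10), and the only higher one was Mmrn2, a multimerin of the endothelial surface, at 369.9 ± 120.2 CPM against 0.0998 ± 0.0974. Of 21 matricellular genes 17 were lower. Sparc was abundant in both, at 17189, 30464, 6819, 21229 and 22924 CPM in endothelial cells and 13599, 42936, 28328, 46024 and 70339 CPM in CAF1, and was not called (adjusted p = 0.229). Its relative Sparcl1 was the 1 higher gene, at 2801 ± 799 CPM against 1119 ± 528 (1.45, SE 0.45, adjusted p = 0.0348), a call lost without tumour 5, 10 or 11. Of 29 proteases and inhibitors 23 were lower: the stromelysin gene Mmp3 was at 0, 1.32, 25.0, 0 and 6.59 CPM against 304, 1494, 157, 4208 and 6149.6 CPM (-10.07, SE 2.03), and the gelatinase gene Mmp2 at 39.4 ± 54.4 against 3345 ± 2775. The higher genes were Adamts9 (2.51, SE 0.29) and the membrane metalloproteinase gene Mmp15 (2.80, SE 0.52).

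Basement membrane genes, which both sides of the vessel wall supply, were split: 6 of 22 were higher, 8 lower and 8 not called, with a median of -0.02, the same as that of all genes. Among all genes tested 19.4% were higher and 22.5% lower. The laminin genes called higher were the alpha chain genes Lama4 and Lama5. Lama3 (log2 fold change 1.94, SE 0.68), Lamb1 (0.55, SE 0.20) and Lamc1 (0.23, SE 0.22) were not called. Lama4 was at 573, 378, 247, 526 and 458 CPM in endothelial cells and at 191, 215, 194, 204 and 242 CPM in CAF1 (log2 fold change 1.01, SE 0.22, adjusted p = 0.00913), and Lama5 at 63.6 ± 14.8 CPM against 6.38 ± 3.56 (3.37, SE 0.43). The linker gene Nid2 was at 323 ± 135 against 47.0 ± 10.6 (2.70, SE 0.35). Lama2, the chain of muscle and mesenchyme, was at 12.6, 0.359, 16.0, 2.20 and 2.37 CPM against 163, 159, 171, 158 and 211 CPM (-5.33, SE 0.76), and Lama1, Lamb2, Lamc3 and Col8a1 were lower as well, Lama1 not without tumour 11. Type IV collagen was abundant in both populations: Col4a2 was called higher, at 2805 ± 563 CPM against 1147 ± 500.2 (1.39, SE 0.38, adjusted p = 0.0214), and Col4a1 was not, at 5412 ± 1886 against 2575 ± 1332 (1.19, SE 0.52, adjusted p = 0.105). The count of higher genes depended on the libraries: it was 3 without tumour 6, 10 or 11, 10 without tumours 5 and 8 or with voom, and 11 with library totals alone. Col4a2, Col18a1 and the perlecan gene Hspg2 were each lost without tumour 5, 6, 10 or 11, and Hspg2, Col4a5 and Lamb3 without the block.

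The matrix-binding integrins were split, 7 of 17 higher and 7 lower, beside 19.4% higher and 22.5% lower among all genes tested. The laminin-binding chains Itga6 (279 ± 38.4 against 53.5 ± 51.1 CPM; 3.10, SE 0.77) and Itga3 (2.89, SE 0.48) and the collagen-binding Itga2 (3.74, SE 0.57) were higher in the lining. The collagen-binding Itga11, a fibroblast integrin, was at 1.10 ± 1.42 CPM against 68.4 ± 31.7 (-6.09, SE 0.89), Itga1 was lower (-1.51, SE 0.31), and Itgb5 was lower at 49.8 ± 44.2 CPM against 1522 ± 978. Itgb1, the beta chain these alpha chains share, was at 928 ± 241 CPM against 1059 ± 254 (-0.19, SE 0.25, not called). Without tumour 11, 3 genes were called higher and Itga6 was not among them.

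Chemokine genes lay mainly with CAF1, 13 of 22 lower and 4 higher. Ccl7, which draws monocytes, was at 56.8, 34.7, 133, 15.6 and 23.5 CPM in endothelial cells and at 739, 3911, 515, 7006 and 2804 CPM in CAF1 (log2 fold change -5.78, SE 1.21), and Cxcl14 (-8.41, SE 1.46), Ccl11 (-5.05, SE 0.94) and Cxcl5 (-4.98, SE 0.90) were lower too. Among the higher genes were receptors: Ackr1, Ackr2 (4.49, SE 0.84) and Cxcr4 (4.91, SE 0.56) were on the endothelial side, whereas Ackr3 was not called (0.19, SE 0.30). Of 24 coagulation and complement genes 18 were lower, among them the complement genes C3 (-5.53, SE 1.35), C2 (-5.76, SE 0.99) and C1s1 (-5.48, SE 1.09) and the inhibitor gene Serping1, at 145 ± 145 CPM against 6132 ± 4342. The 3 higher genes included Vwf, von Willebrand factor, at 159.9, 204, 34.4, 104 and 126 CPM against at most 3.46 CPM (5.75, SE 0.43), and Procr, the protein C receptor (2.46, SE 0.17). The anticoagulant genes Thbd (-0.14, SE 0.23) and Tfpi (0.21, SE 0.18) were not called. C3 lost its call without tumour 5 or 11.

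The antigen presentation, interferon-stimulated, and hypoxia and glycolysis lists held shares of calls below or close to the 41.9% of all genes tested. Of 16 antigen presentation genes 12 were not called, B2m among them (-0.49, SE 0.32), and Cd200, an inhibitory surface protein placed on that list, was the widest of the higher at 192 ± 27.1 CPM against 30.1 ± 7.86 (log2 fold change 2.69, SE 0.18). Of 25 interferon-stimulated genes 8 were higher, 4 lower and 13 not called, a share near that background. Gbp4 was at 27.2 ± 3.15 CPM against 1.23 ± 1.07 (4.65, SE 0.43), Ifi44 at 19.3 ± 8.43 against 2.86 ± 1.67, and Isg15 at 53.3 ± 8.96 against 49.1 ± 7.98 (0.12, SE 0.11, not called). With library totals alone 14 of these genes were higher and 0 lower, and without tumour 5, 6 or 10 the higher count was 5. Of the antigen presentation genes 2 were higher, and 6 with library totals alone. Of 24 hypoxia and glycolysis genes 6 were higher and 5 lower, also near the background. Hk2, the hexokinase gene, was at 13.7, 3.59, 7.85, 0.383 and 2.88 CPM against 77.4, 105, 27.2, 79.3 and 77.0 CPM (-3.97, SE 0.76), whereas Pfkfb3, a regulator of glycolysis, was at 67.5 ± 19.7 against 24.0 ± 12 (1.59, SE 0.33) and Ankrd37 at 43.3 ± 11.4 against 8.05 ± 5.15 (2.58, SE 0.31). The higher count of that list was 3 without the block and without tumour 10 or 11, and 10 with library totals alone or without tumours 5 and 8.

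Cell cycle genes were called in 1 direction, 14 of 25 higher and 0 lower, at a median log2 fold change of 0.80. Mcm3, of the replicative helicase, was at 22.4, 28.5, 31.3, 28.5 and 24.9 CPM in endothelial cells and at 14.6, 6.89, 15.2, 9.29 and 7.12 CPM in CAF1 (1.40, SE 0.24, adjusted p = 0.00331), and Birc5 at 60.1 ± 18.1 against 25.1 ± 9.04 (adjusted p = 0.00467). Top2a, by contrast, was at 44.1 ± 13.1 CPM against 26.2 ± 10.7 (0.78, SE 0.34, not called). Without tumour 10 the count of higher genes was 9, and with library totals alone 23. Immediate early and stress genes were lower in 18 of 22 and higher in 0. Egr1 was at 1286, 677, 824, 1303 and 1492 CPM in endothelial cells and at 2864, 3119, 3942, 5619 and 10029 CPM in CAF1 (-2.10, SE 0.34, adjusted p = 0.00268), Egr2 had a log2 fold change of -3.90 (SE 0.42) and Myc one of -1.89 (SE 0.26). Ier3 was at 1507 ± 699 CPM against 3061 ± 1271 (-1.09, SE 0.50, not called). The lower count was 8 without tumour 6, 7 without tumour 10 and 11 without tumour 11.

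**Figure D5:**
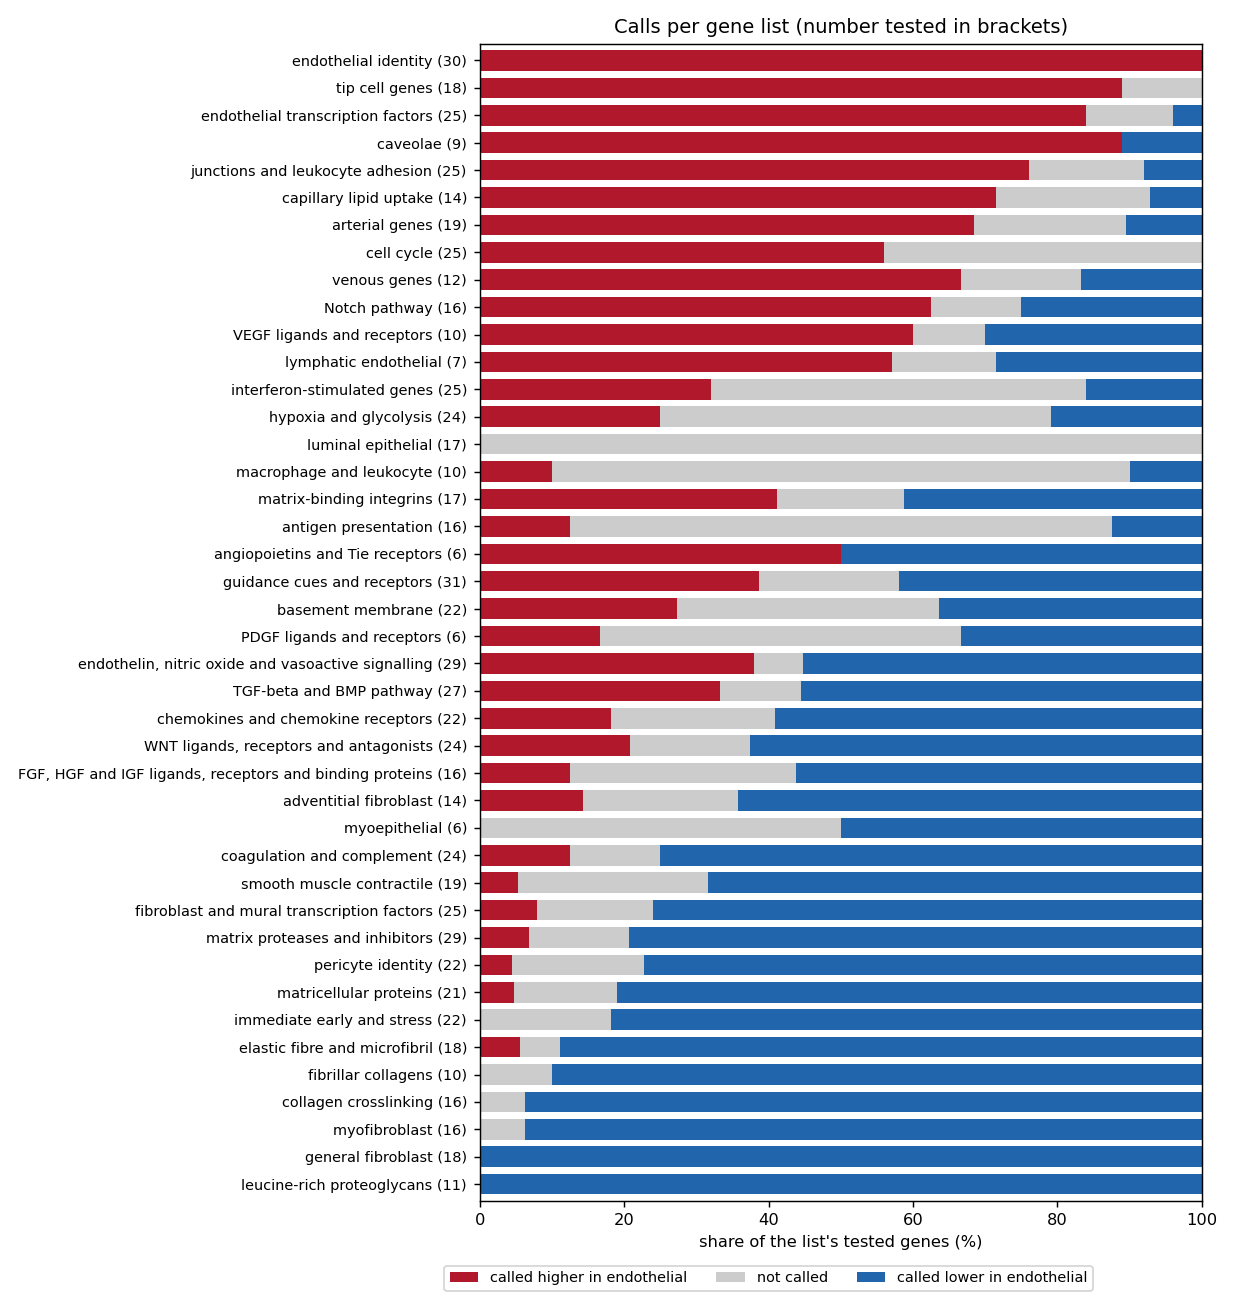
Share of each gene list's tested members called higher, not called and called lower in endothelial cells, for lists with at least 5 tested genes; the number tested is in brackets. Endothelial identity is higher throughout, general fibroblast genes and leucine-rich proteoglycans are lower throughout, and luminal epithelial genes hold no call.

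Transcripts of mammary epithelium were present in both populations. None of 17 luminal epithelial genes was called (median log2 fold change -0.11), and their summed level was 839 to 11717 CPM in endothelial cells and 1382 to 12810.0 CPM in CAF1. Trf, a transferrin gene of the mammary epithelium, was at 499.8, 2228, 7549, 194 and 1571 CPM in endothelial cells and at 834, 1101, 7312, 240.0 and 999 CPM in CAF1 (0.13, SE 0.34, adjusted p = 0.773), highest in tumour 8 in both. The basal keratin gene Krt14 was at 677, 97.3, 152, 19.9 and 62.9 CPM against 1999, 405, 443, 54.8 and 140.0 CPM, highest in tumour 5 in both and lower in each endothelial library (-1.56, SE 0.19, adjusted p = 0.000933); it and Krt5 and Krt17 were not called without the block. The cells that gave these transcripts were not identified. Macrophage genes summed to 192 to 654 CPM against 97.9 to 277 CPM over the list, with Lyz2 (-0.23, SE 0.18) and C1qb (0.15, SE 0.23) not called. Cd14, at 173 to 516 CPM the larger part of the endothelial sum, was higher (1.38, SE 0.22), and Csf1r, named after its values were seen, was the 1 lower gene, at 1.35 ± 1.07 CPM against 5.96 ± 3.38 (-2.15, SE 0.49, adjusted p = 0.0107). Haemoglobin gene Hba-a2 reached 271 CPM in the endothelial library of tumour 6 and was not called. The B cell gene Cd79b was at 126 CPM in CAF1 of tumour 8 and at most 4.71 CPM elsewhere. Of 7 lymphatic endothelial genes tested 4 were higher and 2 lower: Lyve1 was at 10.5, 0.718, 23.3, 15.6 and 24.4 CPM against at most 1.15 CPM (4.90, SE 0.61) and Prox1, the lymphatic factor gene, at 3.41 ± 1.93 against 0.910 ± 0.408 (1.84, SE 0.42; not called with all 30 libraries in the fit or without tumours 5 and 8). Pdpn, a lymphatic gene also made by fibroblasts, was lower at 1.81 ± 2.20 CPM against 95.5 ± 70.0. Reln, the other lower gene, was at 1.17 ± 0.809 CPM against 3.59 ± 1.69 (-1.80, SE 0.60, adjusted p = 0.0461) and was not called when any single tumour was left out, without the block, without a filter, with library totals alone or with all 30 libraries.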

How the data were processed

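RNA of sorted populations was amplified with a SMARTseq kit, made into libraries with an Ovation Ultralow kit and sequenced as 1 pool, per the labels' protocols. The authors deposited raw counts per gene for 14118 genes; the submitters' processing notes name Trimmomatic 0.36, HISAT2 2.0.4, SAMtools 1.3.1, DESeq2 1.26 and mm10. How reads were counted, on which strand and against which annotation is not given in the sources used here, so overlapping antisense genes and near-identical copies cannot be told apart. All columns used were matched to samples by name. Genes without a symbol (14, 0.00841% of counts) stayed in the fit and are not named.

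Counts were fitted with edgeR 4.0.16 in R 4.3.3 (filterByExpr by group, TMM factors of 0.5503 to 1.3943, quasi-likelihood F test, group plus tumour, Benjamini-Hochberg adjusted p under 0.05 over 12535 genes). The fit was first run on simulated counts with balanced changes and no tumour effect, which cannot check the block or the TMM scaling. A standard error is the log2 fold change divided by the square root of F. CPM was computed from counts and TMM-scaled totals and is not divided by gene length. List sums, the part of Cd14 in 1 of them and the share of the most abundant genes therefore take no account of length. Levels of different genes were not otherwise compared. Both libraries of a tumour came from 1 animal, which is why tumour is a block; deviations from the group means correlated at 0.146 to 0.308 within a tumour and at most at 0.066 between tumours. Samples were grouped by their labels, and the alternatives are those given in the closing section.

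The named genes are a set chosen by a rule, and not all of them are written out in the text. The set held the sort and endothelial markers and the 12 widest called differences in each direction. These differences were ranked among genes averaging 20 CPM or more in the higher group, with a library above 3 counts in each group. Every member of the VEGF, PDGF, angiopoietin, Notch, TGF-beta, vasoactive, caveolae, fibrillar collagen, basement membrane, lymphatic, myoepithelial, Schwann cell, erythrocyte, neutrophil and adipocyte lists belonged to it. From the other lists the set took up to 4 called members per direction averaging 10 CPM or more in the higher group and 2 members that were not called. The widest differences and the called members of those other lists had to go the same way in 5 of 5 tumours. Counts given for a list cover all its tested members. Myl9 falls outside that rule and was named after its promoter match was seen. The members and lists were chosen with earlier results of these data known. Gene names were matched to RefSeq promoters by symbol.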

Additional observations from a re-analysis of the deposited data

Results flagged for a closer look

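A library was singled out where, among the 5 of a group, its gap to the nearest of the others exceeded 0.71 of the group's range, a rule that chance meets in about 1 of 20 groups. Of 98 list sums and library measures 9 met it, and of 518 groups of named genes 35 (6.8%). Of those 35, 21 lay in the endothelial library of tumour 8, 5 each in the CAF1 libraries of tumours 8 and 11, 2 in that of tumour 10 and 1 each in the endothelial libraries of tumours 5 and 6.

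In the endothelial library of tumour 8 the sums of sort markers (891 CPM), endothelial markers (612), endothelial identity genes (8047), endothelial transcription factors (1796), arterial genes (1165), TGF-beta and BMP genes (1437), FGF, HGF and IGF genes (8683) and basement membrane genes (5974) were below those of the other 4 endothelial libraries. The sum of integrins was high in the endothelial library of tumour 5 (2558 CPM).

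Single genes of the lining were low in the same library of tumour 8. They were Pecam1 (322 CPM), Tie1 (149), Robo4 (106), Nos3 (67.9), Mmrn2 (164), Myct1 (86.3), Emcn (369.8), Cavin1 (125), Flt4 (34.7) and Nrp2 (80.9). The Notch and BMP genes Dll1 (14.2), Notch1 (59.2), Acvrl1 (38.8) and Smad6 (9.73) were low there too, as were Ltbp4 (91.2), Ramp2 (159), Col4a1 (2266), Col4a2 (1866) and Hspg2 (56.4 CPM). Igfbp2 (476 CPM) and Comp (105 CPM) were high there; in CAF1 of the same tumour Igfbp2 was at 1563 CPM and Comp at 104 CPM.

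In CAF1 of tumour 8, Cav1 (189 CPM), Tbx18 (25.7) and Col11a1 (389.6) were high and Procr (8.24) and Hk2 (27.2) low. In CAF1 of tumour 11, Fzd1 (394 CPM), Spon1 (7019.5), Lama2 (211) and Mmp13 (1099.6) were high and Notch1 (16.0) low. In CAF1 of tumour 10, Gucy1b1 was low (5.55 CPM) and Col27a1 high (36.3 CPM). Ldha was high in the endothelial library of tumour 6 (1919.9 CPM) and Krt17 in that of tumour 5 (256 CPM). The cause of these deviations was not tested.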

How the results depend on the processing

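The counts were recomputed under 15 other settings. Of the 336 named genes with a fitted fold change none reversed; 262 were called, and 54 of these lost the call in at least 1 setting, 40 of them in settings that leave out no library. Without the replicate block for tumour, 4869 genes were called, 2307 higher and 2562 lower, keeping 89.9% and 87.1% of the calls; 22 named genes lost the call, the Gucy1 genes and the basal keratins among them. With library totals alone 4150 genes were higher and 1539 lower. Leaving out 1 tumour at a time gave 3740 to 5713 calls, 1698 to 2588 higher and 2011 to 3125 lower; the count rose without tumour 8, and fell without tumours 5, 6, 10 and 11. DESeq2 gave 2426 higher and 3116 lower, and no named gene lost its call with it, with DESeq2's size factors in edgeR (2429 and 2820) or with voom and quality weights (3034 and 3528). Without a filter, with at least 50 counts in 5 libraries, with all 30 libraries in the fit and with robust dispersion estimates the total stayed within 1.5 times of the reported one. Leaving out tumours 5 and 8 together, chosen after seeing the data, gave 2752 higher and 3175 lower. At these depths a gene with 3 counts or fewer in a library is near the limit of what a count can show, and standard errors cover the spread among these 5 animals alone.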

Other observations

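Outside the rule for named genes, and chosen after its values were seen, Ushbp1 was at 383 ± 116 CPM in endothelial cells (SD, n = 5) and at 0.180 CPM on average in CAF1, where no library exceeded 3 counts. Of the Schwann cell genes, S100b was at 0.367, 0.718, 10.9, 0.0957 and 0.927 CPM in endothelial cells and at 1.56, 5.24, 20.2, 10.7 and 9.79 CPM in CAF1 of tumours 5, 6, 8, 10 and 11, lower in each tumour (log2 fold change -2.78, SE 0.69; edgeR's quasi-likelihood test, Benjamini-Hochberg adjusted p = 0.0152), and Mbp was lower as well (-1.22, SE 0.25). S100b was not called without the tumour block or without tumour 11, and Mbp with library totals alone. Sox10, the lineage's transcription factor gene, was at 7.41 ± 4.81 CPM against 9.30 ± 7.46 and was not called (-0.17, SE 0.34). Of the neutrophil genes, S100a8 was at 1.15 to 11 CPM in endothelial cells and 0.445 to 11.8 CPM in CAF1 (-0.04, SE 0.63, not called). Adventitial genes, listed for CD34-positive fibroblasts, were read unevenly in CAF1, whose gate asked for CD34-negative cells. Of 14 tested 9 were lower in endothelial cells, 2 higher and 3 not called, beside 22.5% lower and 19.4% higher among all genes. In CAF1 Pi16 was at 229, 783, 50.5, 583 and 1980.4 CPM, against 0.862 to 6.71 CPM in endothelial cells (-7.17, SE 0.83). Has1 was at 1613 ± 1160.3 CPM in CAF1 against 6.59 ± 4.27 (-7.76, SE 1.12). Clec3b was at only 3.78, 33.9, 1.28, 67.2 and 60.8 CPM in CAF1 (-6.10, SE 1.05). CD34-positive fibroblasts were not compared here. Ly6c1, on the same list, was higher in endothelial cells, at 846 ± 381 CPM against 160.4 ± 141 (2.88, SE 0.45), and Ly6a was not called (-0.31, SE 0.46).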
